A study of Sus scrofa with 31 samples.

Results

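EGR1, EGR2, NR4A1, NR4A2, KLF4, BTG2, IER2, IER3 and IER5 are early response genes, and their transcript levels were followed in pig (Sus scrofa) hearts kept outside the body. The genes were chosen by symbol. The table of the storage experiment (arm 1) listed all 9 among 21313 genes, and the table of hearts warmed after storage (arm 2) listed 8 among 25149, with NR4A1 not matched there by symbol. In arm 1, myocardium of 6 pigs was biopsied at 0, 12, 24 and 48 h. Pigs 1, 3 and 5 were stored under the condition labelled SCS and pigs 2, 4 and 6 under the condition labelled HOPE, so each method and time had 3 libraries from 3 pigs. The 7 libraries of arm 2 followed storage with 2 h of normothermic machine perfusion (NMP), which restores warm flow through the coronary vessels. HOPE lasted 3, 24 or 48 h before NMP, with a pair of libraries (2) at each length, and the single SCS library had 24 h of storage. SCS and HOPE are abbreviations of the labels, usually read in this field as static cold storage and hypothermic oxygenated perfusion. They name no strain, age, genotype or drug for any group. Nothing says that the arm 2 libraries came from separate animals, so arm 2 p-values measure only the spread between samples within the HOPE groups. The single SCS library has no spread of its own and was given that of the HOPE groups.

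Early response genes are transcribed within minutes of a stimulus from promoters that are already poised, without new protein synthesis. Many are switched on by kinase signalling that ends on serum response factor and its partners or on CREB, and their messenger RNAs are usually short-lived. In the heart they are known to respond to stretch, ischaemia and reperfusion. Of the transcription factors, EGR1 (ENSSSCG00000014336, chr2:140440829-140445302) and EGR2 (ENSSSCG00000010224, chr14:66280665-66291308) are zinc finger proteins of the early growth response family. NR4A1 (ENSSSCG00000031321, chr5:17403088-17407918) and NR4A2 (ENSSSCG00000015871, chr15:63487051-63506249) are orphan nuclear receptors, and the RefSeq table lists the pig NR4A1 locus as a pseudogene. KLF4 (ENSSSCG00000005437, chr1:248604817-248609574) is a zinc finger factor known from endothelial and smooth muscle cells. BTG2 (chr9:64033853-64037795, ENSSSCG00000055218 in arm 1 and ENSSSCG00000028322 in arm 2) is an antiproliferative protein that works with the deadenylase complex that shortens messenger RNA tails. IER2 (ENSSSCG00000013753, chr2:65909638-65912491) is a nuclear early response protein, IER3 (ENSSSCG00000027607, chr7:23265560-23266905) is a stress response gene linked to cell survival, and IER5 (ENSSSCG00000015541, chr9:122633781-122635950) acts with heat shock factor 1 and protein phosphatase 2A. Positions are those of the RefSeq table of Sscrofa11.1, found by symbol.

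Arm 1 libraries held 19722065 to 35099406 reads, and values are counts that the authors had normalised by library. The genes were read at uneven depth: EGR2 had 15 to 82 reads in a library and NR4A2 14 to 150, against 156 to 5087 for NR4A1 and 176 to 1916 for EGR1. In arm 2 the SCS library stood apart by its low sum of cardiomyocyte markers. In arm 1 the SCS library of pig 5 at 48 h stood apart, with 82.4% of its reads from mitochondrial genes against 29.0% to 62.1% in the other libraries. Cardiomyocytes are the labelled cell type, and all 11 cardiomyocyte markers were detected, but so were all 10 endothelial, all 7 fibroblast and all 8 T and NK cell markers. In bulk biopsies such as these, fewer cells of a type and less RNA per cell cannot be told apart.

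Before storage, EGR1 had the widest spread over hearts among the 9 early genes. Its normalised count at 0 h was 1769, 713 and 312 in the SCS hearts of pigs 1, 3 and 5 and 230, 479 and 344 in the HOPE hearts of pigs 2, 4 and 6. The heart of pig 1 was far above the rest, and the lowest and highest hearts differed 7.68-fold. The standard deviation of log2(count + 1) over the 6 hearts was 1.06 for EGR1, which was higher than in 95.4% of the 14141 genes tested. Without pig 1 it was 0.62, higher than in 77.4%, and NR4A2, at 0.81, then had the widest spread. NR4A2 (19.2 to 76.5, SD 0.74) and EGR2 (17.5 to 66.6, SD 0.73) came next, at the 86.5th and 85.8th percentiles. NR4A1 had an SD of 0.57, and the other 5 genes lay between 0.33 for BTG2 and 0.48 for IER5. The members' median SD was 0.48 against 0.36 over all genes.

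For BTG2 and IER3 the groups did not overlap at 0 h, before storage. BTG2 counts were 155, 140.3 and 119 in the SCS hearts and 108, 94.3 and 84.2 in the HOPE hearts at 0 h. IER3 lay the other way, at 263, 306 and 227 in the SCS hearts and 512, 348 and 334 in the HOPE hearts. These were the 2 of 9 genes whose SCS and HOPE hearts did not overlap at 0 h, as was also the case for 11.4% of all genes tested. No early gene passed the test between methods at 0 h (limma, smallest adjusted p 0.674, for EGR1), and 0.0% of all genes did.

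**Figure D1:**
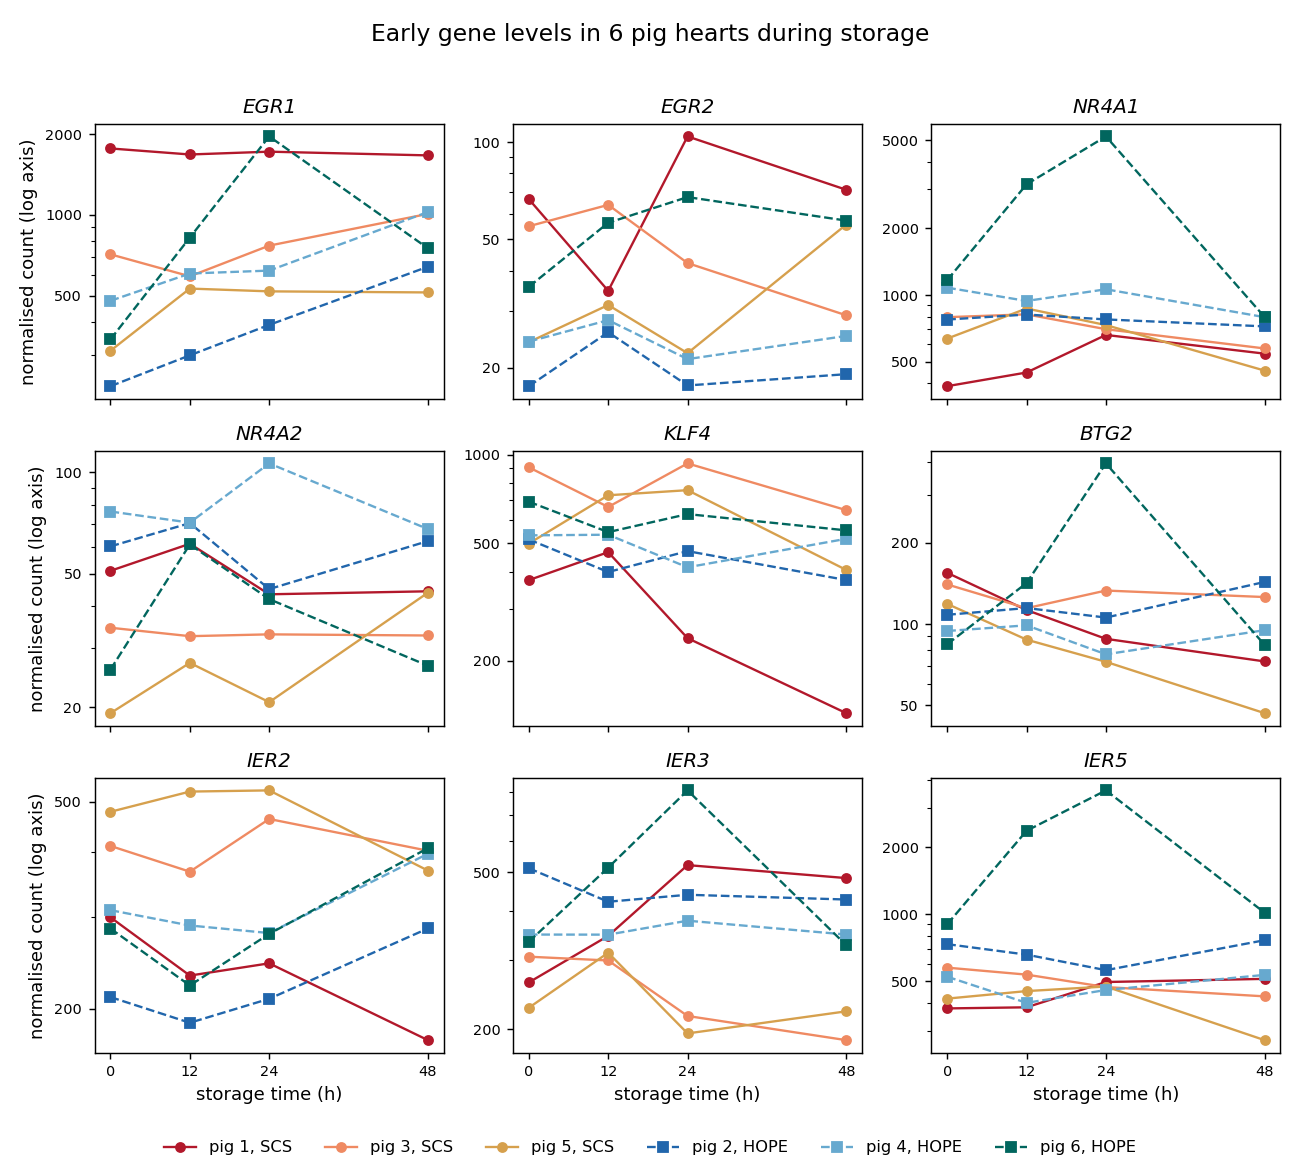
Normalised count (log axis) of each early gene against storage time (h) in 6 pig hearts, 1 line per heart, with SCS hearts as circles on solid lines and HOPE hearts as squares on dashed lines. EGR1 of pig 1 starts at 1769 and stays near it, while NR4A1, IER5 and BTG2 of pig 6 peak at 24 h.

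EGR1 was the early gene that lay above its own start in every stored HOPE library. Over 0, 12, 24 and 48 h its count was 230, 300.0, 390 and 641 in pig 2, 479, 605, 620.5 and 1025.5 in pig 4, and 344, 824, 1961 and 751 in pig 6. The 9 libraries were above their own heart's 0 h library by 0.34 to 2.51 on the log2 scale with a median of 1.10. Of all genes tested, 5.28% were higher in all 9 stored HOPE libraries. The order held with the counts scaled to each library's total, with or without the mitochondrial genes. In SCS, EGR1 was 1769, 1679.6, 1721 and 1667 in pig 1, 713, 591, 769 and 1009 in pig 3, and 312, 532, 519 and 515 in pig 5. The direction was mixed there, with 5 of 9 stored libraries above their own 0 h, and pig 1 changed by only -0.09 to -0.04. Marker sums of other cell types differed over the same HOPE biopsies. From 0 h to the stored libraries the T and NK cell sum went from 553 to between 311 and 412 in pig 2 and from 516 to between 251 and 333 in pig 4. The red cell sum went from 23.6 to between 168 and 2316 in pig 2 and from 34.6 to between 123 and 353 in pig 4. Their part in the EGR1 values was not tested. No early gene was higher in all 9 stored SCS libraries, as 3.87% of all genes were.

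Despite this order the EGR1 change did not pass the test. In HOPE the log2 difference from 0 h after 12, 24 and 48 h was 0.66, 1.21 and 1.23 (SE 0.65 for each), and 1.03 ± 0.53 for the mean of the 3 storage times (limma, adjusted p 0.999). With the pig as a block the adjusted p of that mean was 0.244. Without pig 6 the 24 h difference was 0.56 and the 48 h difference 1.29. The change in HOPE minus that in SCS was 0.77 ± 0.75 over the storage times (limma, adjusted p 0.997). With the pig as a block its SE was 0.36 (adjusted p 0.403). In every comparison of a storage time with 0 h, 0 of 9 early genes were called, and 0.0% of all 14141 genes were. At an unadjusted p under 0.05 limma without the block also gave 0 early genes in each of these comparisons. After adjustment edgeR and DESeq2 called no early gene, while DESeq2 called 4 of all genes for HOPE at 24 h and 2 at 48 h. Unadjusted, each gave 3 under 0.05 for HOPE at 24 h (EGR1, NR4A1 and BTG2), among 255 and 331 genes. With the pig as a block, the unadjusted limma p of EGR1 was 0.047, 0.00096 and 0.00083 at 12, 24 and 48 h of HOPE. There 559, 1197 and 1068 of all genes were under 0.05. With the block, BTG2, IER2 and KLF4 were under 0.05 for SCS at 48 h, and IER2 for HOPE at 48 h. Blocking by pig called 308 genes (2.18%) for SCS at 48 h, none of them early genes, and 0 genes when pig 2 or pig 5 was left out.

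EGR2, the related factor, was above its own start in 8 of 9 stored HOPE libraries, and 12.3% of all genes were so in at least 8. With counts scaled to library totals, with or without mitochondrial genes, it was 7 of 9. Its count over time was 17.5, 25.8, 17.6 and 19.1 in pig 2, 24.1, 28.1, 21.3 and 25.1 in pig 4, and 35.6, 56.2, 67.6 and 57.1 in pig 6. The larger differences were those of pig 6, at 0.64 to 0.90 log2 units, while the smallest positive ones were 0.0069 in pig 2 and 0.056 in pig 4. The SCS hearts had no common direction for EGR2: pig 1 went through 66.6, 34.6, 104 and 71.2, pig 3 through 54.9, 63.9, 42.2 and 29.1, and pig 5 through 24.0, 31.3, 22.2 and 55.5. The last value came from the library with the high mitochondrial share. At 24 h the mean HOPE difference from 0 h was 0.25 ± 0.59 for EGR2 (limma, adjusted p 0.999).

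In the HOPE heart of pig 6, several early genes stood far above their own start at 12 and 24 h and were back near it at 48 h. NR4A1 was 1168, 3164, 5206.5 and 796 over 0, 12, 24 and 48 h. IER5 was 901, 2369, 3596.5 and 1015, and BTG2 was 84.2, 142, 394 and 83.7. IER3 was 334, 514, 807.5 and 327. The 24 h library held the highest value of the heart for each of these 4 genes. At 24 h the log2 change in pig 6 was 2.51 for EGR1, 2.21 for BTG2, 2.15 for NR4A1, 2.00 for IER5 and 1.27 for IER3. Thus 5 of 9 early genes were more than 1 log2 unit up, where 5.70% of all genes were. At 12 h there were 4 (NR4A1, IER5, EGR1 and NR4A2, at 1.21 to 1.44) against 3.49% of all genes, and at 48 h there was 1, EGR1. The median change of the 9 genes in this heart was 0.75, 1.27 and 0.04, and that of all genes was -0.0119, -0.0036 and -0.0085. KLF4 and IER2 did not share the pattern, with changes of -0.14 and -0.03 at 24 h.

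The other HOPE hearts did not show it. NR4A1 was 775, 817, 776 and 722 in pig 2 and 1080.4, 941, 1062 and 795 in pig 4. IER5 was 734, 658, 561 and 764 in pig 2 and 524, 399.9, 457 and 534 in pig 4. The largest change of either gene in these hearts was -0.44, for NR4A1 of pig 4 at 48 h. IER3 was 512, 421, 439 and 427 in pig 2 and 348, 348, 377 and 348 in pig 4. For the 3 HOPE hearts together, the 24 h difference from 0 h was 0.71 ± 0.52 for NR4A1 and 0.63 ± 0.43 for BTG2 (limma, adjusted p 0.999 for both), and without pig 6 it was -0.011 and -0.16. Summed markers of other cell types also differed between the biopsies of pig 6: endothelial markers came to 53766, 35210, 29691 and 36811, the T and NK cell markers to 1215, 408, 368 and 385, and red cell markers to 47.8, 311, 313 and 688 over the 4 times. Their part in the early gene values was not tested.

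**Figure D2:**
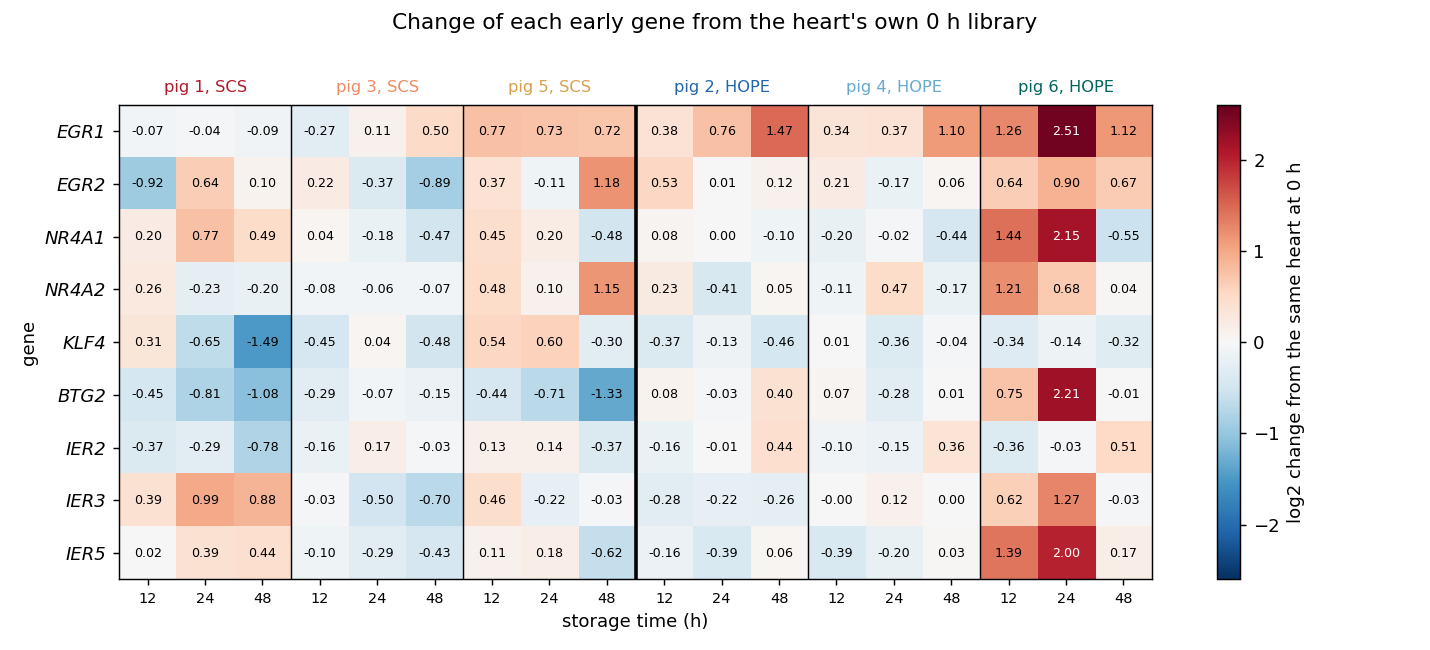
Log2 change of each early gene (rows) from the same heart's 0 h library at 12, 24 and 48 h of storage (columns, grouped by pig), with SCS hearts left and HOPE hearts right of the thick line. Red is higher and blue lower than at 0 h; the EGR1 row is positive in all 9 HOPE columns, the BTG2 row negative in all 9 SCS columns, and pig 6 holds the strongest red.

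BTG2 was lower than its own 0 h library in all 9 stored SCS libraries. Its count was 155, 113, 88.2 and 72.7 in pig 1, 140.3, 115, 133 and 126 in pig 3, and 119, 87.6, 72.5 and 46.8 in pig 5. Pigs 1 and 5 were lower at each later time, while pig 3 changed by -0.29 to -0.07. The mitochondrial share of reads went from 35.9% at 0 h to 48.0% at 48 h in pig 1, from 38.7% to 60.0% in pig 3 and from 52.5% to 82.4% in pig 5, and its part in the BTG2 values was not tested. The changes ran from -1.33 to -0.07, and 3.58% of all genes were lower in all 9. Scaled to the library total BTG2 was again lower in 9 of 9, but so were 25.3% of all genes, or 9.11% with mitochondrial genes left out of the total. The 48 h difference was -0.85 ± 0.43 (limma, adjusted p 0.635, or 0.206 with the pig as a block). Without the 48 h library of pig 5 it was -0.51. Scaled to library totals it was -1.81 and passed (adjusted p 0.024), as did KLF4 (-1.73, 0.017) and IER2 (-1.37, 0.015), with the median gene at -0.99 on that scale.

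In HOPE, BTG2 had no such order. It was 108, 115, 106 and 143 in pig 2 and 94.3, 99.0, 77.3 and 95.0 in pig 4, and 6 of 9 stored HOPE libraries were above their start. At 12 h all 3 HOPE hearts were above and all 3 SCS hearts below their own 0 h, a split that 5.54% of all genes showed. The change in HOPE minus that in SCS was 0.95 ± 0.50 over the storage times (limma, adjusted p 0.997). With the pig as a block its SE was 0.43 (adjusted p 0.392). At 24 h no early gene split the methods in this way (4.29% of all genes did).

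KLF4 was low above all in the SCS heart of pig 1, at 375, 467, 239 and 133 over the 4 times. That heart's endothelial marker sum went 44305, 37570, 23424 and 14295 over the same biopsies, and its part in the KLF4 values was not tested. Pig 3 had 905, 664, 933 and 648, and pig 5 had 499, 728, 757 and 406. All 3 SCS hearts were thus below their start at 48 h, with a mean log2 difference of -0.76 ± 0.48 (limma, adjusted p 0.717, or 0.097 with the pig as a block). Without pig 1 the difference was -0.39. In HOPE, KLF4 was 515, 399.8, 471 and 375 in pig 2, 532, 535, 415 and 518 in pig 4, and 692, 546, 628 and 553 in pig 6. That put 8 of 9 stored libraries below their start, the lowest at -0.46, and 8.53% of all genes were below it in at least 8. Scaled to library totals KLF4 was below in 7 of 9, or 8 of 9 without mitochondrial genes. No early gene was lower in all 9 stored HOPE libraries, as 2.83% of all genes were.

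IER2 split the methods at 48 h. In SCS its count over time was 299, 231, 244 and 174 in pig 1, 411, 367, 463 and 402 in pig 3, and 478, 522, 525 and 368 in pig 5. In HOPE it was 210.4, 188, 209 and 285 in pig 2, 309, 289, 279 and 397 in pig 4, and 285, 222, 278 and 407 in pig 6. The 3 HOPE hearts were above and the 3 SCS hearts below their own 0 h at 48 h, as 4.96% of all genes were split. Pig 3 was below by only -0.03 log2 units, and the 48 h value of pig 5 came from the library with the high mitochondrial share. The difference between the changes was 0.83 ± 0.48 (limma, adjusted p 0.988, or 0.085 with the pig as a block). In all 4 comparisons of the change between methods 0 of 9 early genes and 0.0% of all genes were called.

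NR4A1, NR4A2, IER3 and IER5 had no direction common to the SCS hearts. NR4A1 was 388, 447, 661 and 544 in pig 1, 795, 819, 701 and 574 in pig 3, and 636, 869.7, 732 and 456 in pig 5. IER3 was 263, 345, 522 and 484 in pig 1, 306, 299, 216 and 188 in pig 3, and 227, 313, 195 and 222 in pig 5. Pig 1 was thus above its start for both genes while pig 3 was below it at 24 and 48 h. IER5 was 377, 382, 496 and 512 in pig 1, 575, 535, 471 and 428 in pig 3, and 418, 452, 473 and 272 in pig 5. NR4A2 counts were low: 51.0, 61.3, 43.4 and 44.3 in pig 1, 34.5, 32.6, 33.0 and 32.7 in pig 3, and 19.2, 27.1, 20.7 and 43.9 in pig 5. In the HOPE hearts NR4A2 was 60.2, 70.6, 44.9 and 62.5 in pig 2, 76.5, 70.9, 106 and 67.8 in pig 4, and 25.9, 61.0, 42.0 and 26.6 in pig 6. Pig 6 had its highest NR4A2 value at 12 h, before the 24 h peak of NR4A1.

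The spread over hearts was widest at 24 h. The members' median SD of log2 counts over 6 hearts was 0.48, 0.54, 0.90 and 0.57 over the 4 times. Over all genes tested the median was 0.36, 0.37, 0.45 and 0.49. Without pig 6 the members' medians were 0.46, 0.43, 0.63 and 0.59. At 24 h IER5 (1.18), NR4A1 (1.15) and EGR2 (1.01) were above 1, and without pig 6 they were 0.12, 0.27 and 1.02. NR4A1 had its widest spread at 24 h, and at 48 h it was at 0.33, below the median gene. EGR1 had its widest spread at 0 h (1.06) and its narrowest at 48 h (0.60). That order rested on pig 1, without which EGR1 was at 0.62, 0.53, 0.89 and 0.43 over the 4 times and widest at 24 h.

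**Figure D3:**
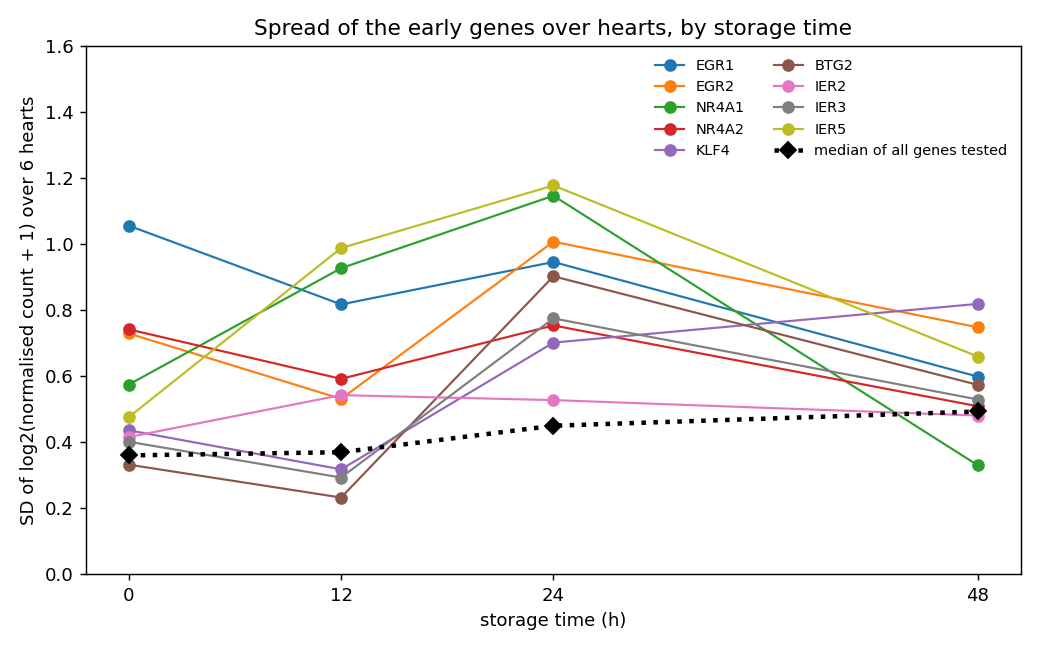
SD of log2(normalised count + 1) over the 6 hearts at each storage time (h), 1 line per early gene and a dotted black line for the median of all 14141 genes tested. NR4A1 and IER5 peak at 24 h (1.15 and 1.18) while EGR1 is widest at 0 h (1.06, or 0.62 without pig 1).

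Between methods at a given time, several early genes were higher in HOPE without passing the test. NR4A1, IER5, NR4A2 and IER3 were already higher there at 0 h, by 0.77, 0.64, 0.59 and 0.57 log2 units. At 24 h the change from 0 h in HOPE minus that in SCS was 0.45, 0.38, 0.31 and 0.30 for them. At 48 h it was -0.21 for NR4A1 and 0.29 for IER5. Already lower in HOPE at 0 h were EGR1 (-1.12), EGR2 (-0.82), IER2 (-0.55) and BTG2 (-0.52). At 24 h NR4A1 was 776, 1062 and 5206.5 in HOPE and 661, 701 and 732 in SCS. The groups did not overlap, and the log2 difference was 1.22 ± 0.52 (limma, adjusted p 0.147). Without pig 6 it was 0.38. IER3 differed by 0.86 ± 0.36 (adjusted p 0.137). It differed by 0.54 without pig 6 and by 1.31 without pig 1, where it passed (adjusted p 0.0098). IER5 differed by 1.02 ± 0.59 (adjusted p 0.264), or 0.08 without pig 6, and NR4A2 by 0.90 ± 0.47 (adjusted p 0.225), or 0.47 without pig 4. IER2 lay the other way, at -0.62 ± 0.34 (0.241). So did EGR2 (-0.63 ± 0.59), EGR1 (-0.18 ± 0.65) and KLF4 (-0.15 ± 0.48), which left 5 of 9 early genes higher in HOPE at 24 h. At 48 h IER5 (764, 534 and 1015 in HOPE against 512, 428 and 272 in SCS) and NR4A1 (722, 795 and 796 against 544, 574 and 456) did not overlap, with differences of 0.93 ± 0.59 and 0.56 ± 0.52 (limma, adjusted p 0.308 and 0.502).

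Non-overlap was common among all genes at each time. It was seen for 1 of 9 early genes at 12 h (IER3) against 23.7% of all genes, for 1 at 24 h (NR4A1) against 26.8%, and for 2 at 48 h (IER5 and NR4A1) against 20.6%. The limma test called 0 of 9 early genes at 12, 24 and 48 h, where 0.0141%, 2.04% and 6.25% of all genes passed. At an unadjusted p under 0.05 there were 2 early genes at 24 h (NR4A1 and IER3), where 26.8% of all genes were, and 0 at 12 and 48 h, against 16.3% and 27.8%. With the pig as a random term the background was 9.87% at 24 h and 11.5% at 48 h, again with 0 early genes called. DESeq2 on the recovered reads called 2 early genes at 24 h, where it called 1521 of all 14141 genes. They were NR4A1 (log2 difference 1.75, adjusted p 0.022) and IER5 (1.68, adjusted p 0.047). In limma the differences of these 2 genes were 0.38 and 0.08 without pig 6. edgeR called 0 early genes and 219 of all genes. Scaled to library totals, where the median gene at 48 h lay at 1.12 and 8069 genes were called higher and 43 lower in HOPE (543 and 341 in the main analysis), 6 of 9 early genes were called higher in HOPE at 48 h.

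Across the 24 libraries, 4 from each of 6 pigs, NR4A1 and IER5 ran closest together, with a Pearson r of log2 counts of 0.89, or 0.50 over the 20 libraries without pig 6. EGR1 and EGR2 had an r of 0.66, and 0.65 without pig 6. IER2 and IER3 ran opposite, at -0.72, and -0.80 without pig 6. With each pig's own mean removed, r was 0.90 for NR4A1 and IER5, 0.20 for EGR1 and EGR2 and -0.39 for IER2 and IER3. The r of EGR1 and EGR2 thus lay largely in standing differences between hearts. NR4A1 had an r of 0.82 and IER5 of 0.82 with the mean z-score of the 9 genes, while NR4A2 had 0.13 and IER2 -0.08. Each of the 9 is itself part of that mean, which raises its r, so these values do not compare directly with those of other genes. Outside the 9, the genes most like that mean were RHOB (a small GTPase, r 0.83), ATF3 (a stress-induced transcription factor, 0.83), OTUD1 (0.78), ABRA (0.78), CCN1 (0.77), IFRD1 (0.77), VPS51 (0.76) and MMP24 (0.75). The lowest values were those of ZNF649 (-0.75), SETD1A (-0.72) and ZNF197 (-0.71). ATF3 shows what the likeness rested on: its count in pig 6 was 1707, 7701.5, 15458 and 952, against 70.2 to 360.4 in the 20 libraries of the other pigs. Without pig 6 the r of the 8 most like genes ran from 0.27 (CCN1) and 0.37 (VPS51) to 0.58 (ATF3). The negative values were then -0.20 for SETD1A, -0.43 for ZNF649 and -0.66 for ZNF197.

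Of other early and feedback genes, 46 were listed, 44 found and 42 tested in arm 1. None passed in any comparison of a storage time with 0 h, and their median difference at 24 h of HOPE was -0.08, with 14 of 42 positive and a median of 0.02 over all genes. In pig 6 at 24 h, 8 of the 42 were more than 1 log2 unit up, ATF3, CCN1, CCN2, FOS, FOSB, MAFF, NR4A3 and PPP1R15A, against 5.70% of all genes. In the SCS heart of pig 1 at 24 h there were 5 (ATF3, CCN1, CCN2, NR4A3 and PPP1R15A), against 3.85% of all genes. The AP-1 subunit FOSL2 was the member of this list that passed between methods at a given time. No gene of the list passed for the change from 0 h between methods. At 24 h FOSL2 was 326, 293 and 279 in HOPE and 113, 174 and 149 in SCS, a difference of 1.06 ± 0.27 (limma, adjusted p 0.049). At 48 h it was 349, 323 and 197 against 128, 140.5 and 64.3, or 1.41 ± 0.27 (adjusted p 0.015). The call was lost at 24 h without pig 2, 3, 4 or 5 (adjusted p 0.143 to 0.255) and at 48 h without pig 2, 4 or 5 (0.140 to 0.166), and it was 0.076 without the 48 h library of pig 5.

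Of 26 tested upstream and corepressor genes, 2 were called higher in HOPE at 24 h and 2 at 48 h, and none lower, where 2.04% and 6.25% of all genes were called in either direction. HDAC4, a class IIa histone deacetylase that represses MEF2 targets, was 351, 325 and 229 in HOPE and 81.0, 121 and 99.1 in SCS at 24 h. The difference was 1.57 ± 0.33 at 24 h and 1.19 ± 0.33 at 48 h (limma, adjusted p 0.032 and 0.041). The change of HDAC4 from 0 h to 24 h in HOPE minus that in SCS was 0.84 ± 0.47 (limma, adjusted p 0.9997). No gene of this list passed for the change from 0 h between methods. RPS6KA5, a kinase that phosphorylates CREB, differed by 1.15 ± 0.28 at 24 h (adjusted p 0.043), and MAP2K1, which activates ERK, by 0.69 ± 0.19 at 48 h (adjusted p 0.039). Leaving out pig 2, 3, 4 or 5 ended each of these calls, with adjusted p of 0.071 to 0.273. The list had no call against 0 h, and its median difference over the SCS storage times was -0.16, with 8 of 26 positive against a median of -0.02 over all genes. SRF, the serum response factor, was more than 1 log2 unit up in pig 6 at 12 and 24 h, and its mean difference from 0 h over the HOPE storage times was 0.63 ± 0.41 (adjusted p 0.999).

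Arm 2 values were read as TPM (a transcript level per length and library total) because every library has the same total and no common step, though the table is titled normalised counts. After NMP, IER3 had the highest TPM of the 8 genes in all 6 HOPE libraries, and NR4A2 or EGR2 the lowest. IER3 was 1436 and 682 TPM after 3 h of HOPE, 1179.5 and 1779 after 24 h, and 1740.5 and 1235 after 48 h. The 3 storage lengths overlapped for IER3. EGR1 was 274 and 158 TPM after 3 h, 187 and 263 after 24 h, and 627 and 318 after 48 h. BTG2 was 190.3 and 185 TPM, then 270.2 and 684, then 970.5 and 298. For both genes replicate 1 of the 48 h group was far above the other HOPE library of that length. KLF4 was 29.9 and 14.9 TPM, then 22.7 and 45.3, then 69.3 and 34.0. EGR2 was 11.06 and 8.09 TPM, then 17.9 and 14.4, then 35.8 and 12.99. In these 4 genes both 48 h libraries were above both 3 h libraries, with replicate 1 of the 48 h group the highest HOPE library for each. That order held for 4 of the 7 early genes tested and for 19.4% of all 4388 genes.

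The differences by storage length did not pass the test. From 3 to 48 h of HOPE the log2 difference was 1.51 ± 0.60 for BTG2, 1.16 ± 0.49 for KLF4, 1.12 ± 0.45 for EGR2 and 1.09 ± 0.43 for EGR1 (limma, adjusted p 0.562 to 0.600), with a median of 0.02 over all genes. Their unadjusted p-values were 0.035 to 0.046, and 8.07% of all genes had one under 0.05. Without replicate 1 of the 48 h group these differences were 0.66, 0.66, 0.42 and 0.61, and 0 early genes had an unadjusted p under 0.05. There were also 0 without replicate 2 of the 3 h group. IER2 (68.5 and 27.7, then 79.9 and 64.5, then 183 and 44.8 TPM) differed by 1.04 ± 0.65, or 0.04 without that library. IER5 (218 and 104, then 269 and 249, then 332 and 199.9 TPM) differed by 0.77 ± 0.42, and IER3 by 0.57 ± 0.42. All 7 differences were positive. The limma test called 0 of 7 from 3 to 24 h (0.0% of all genes), 0 of 7 from 3 to 48 h (0.0%) and 0 of 7 from 24 to 48 h (0.0684%).

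NR4A2 was at 3.45 to 12.6 TPM in the HOPE libraries and, with a mean under 10, was not among the genes tested. Red cell markers differed with storage length: their sum was 1580 and 3125 TPM in the 48 h libraries and 34.2 to 152 in the 3 and 24 h libraries. Its part in the early gene values was not tested. The other early genes had the same direction from 3 to 48 h: 20 of 21 tested were positive, with a median of 0.93 against 0.02 over all genes. They ran from TNFAIP3, an inhibitor of NF-kappaB signalling, at 2.02 ± 0.56 (adjusted p 0.375) to PER1 at -0.57 ± 0.45 (adjusted p 0.807). None of them passed, and of 14 upstream genes tested 8 were positive, with a median of 0.13.

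**Figure D4:**
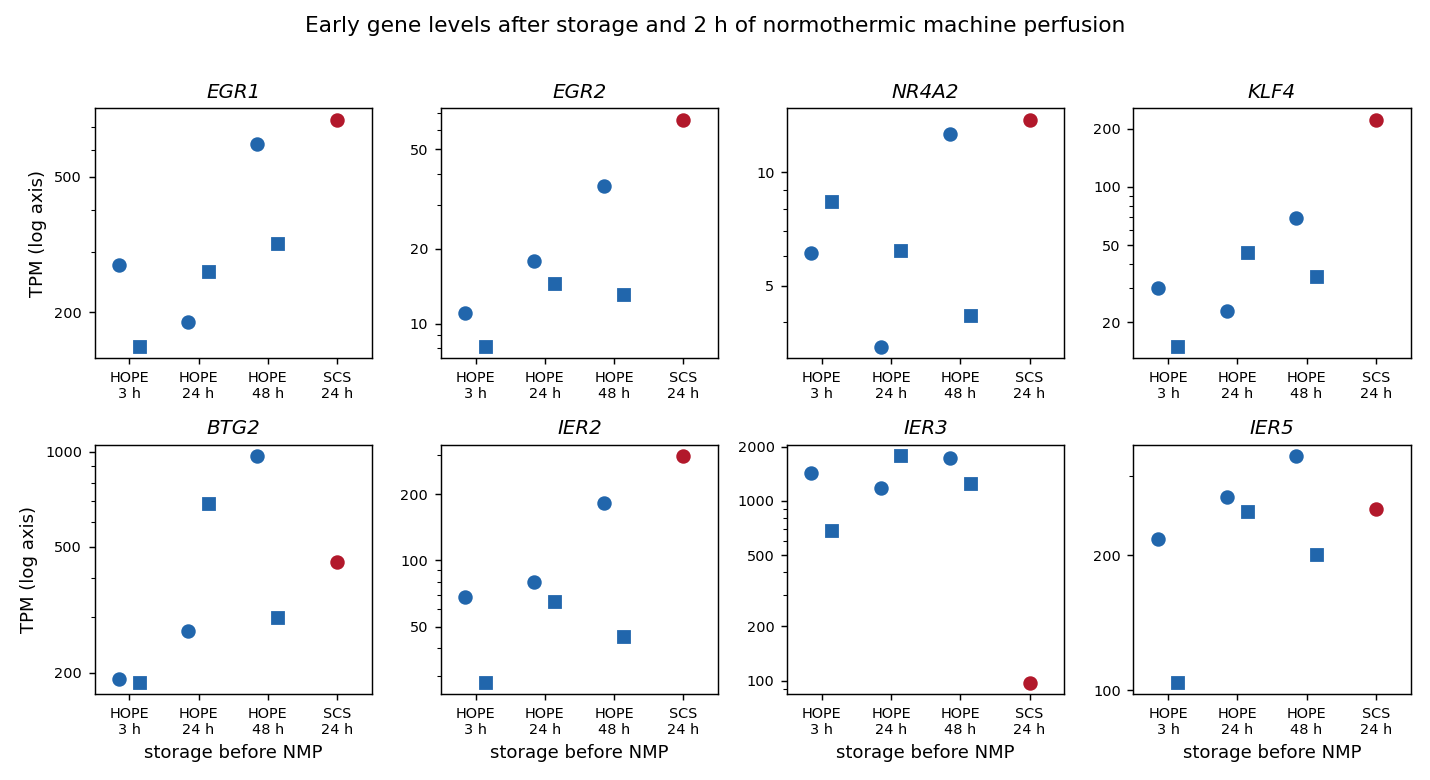
TPM (log axis) of 8 early genes after storage and 2 h of NMP, 1 point per library, with HOPE in blue (circle for replicate 1, square for replicate 2) and the single SCS library in red. The SCS point is above all HOPE points for EGR1, EGR2, KLF4 and IER2 and below all of them for IER3.

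After 24 h of storage and NMP, the SCS library had higher KLF4, EGR2 and EGR1 and lower IER3 than the HOPE libraries. KLF4 was 222 TPM against 22.7 and 45.3, a 6.54-fold difference in means and 2.75 ± 0.60 on the log2 scale (limma, adjusted p 0.0077). EGR2 was 65.7 TPM against 17.9 and 14.4, or 4.07-fold and 1.97 ± 0.55 (adjusted p 0.018). EGR1 was 737 TPM against 187 and 263, or 3.28-fold and 1.73 ± 0.53 (adjusted p 0.026). These 3 transcription factors were above all 6 HOPE libraries, whatever the storage length. IER3 was 96.8 TPM against 1179.5 and 1779, 15.3-fold higher in HOPE, with a log2 difference of -3.89 ± 0.51 (adjusted p 0.0010).

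The other early genes did not pass. IER2 was 298 TPM in the SCS library, above all 6 HOPE libraries, and differed from HOPE 24 h by 2.04 ± 0.80 (limma, adjusted p 0.060). BTG2 (449 TPM) and IER5 (254 TPM) differed by 0.06 ± 0.74 and -0.03 ± 0.52 (adjusted p 0.944 and 0.962). NR4A2 was 13.8 TPM, against 3.45 and 6.20 in HOPE 24 h. The order of the genes by TPM also differed: EGR1 was the highest early gene in the SCS library, and IER3 was 6th of 8.

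These calls stand in a comparison in which 54.2% of all genes tested were called, 2.42% higher and 51.8% lower in SCS, and the median gene was at -1.12. Relative to that median the differences were 3.87 for KLF4, 3.09 for EGR2, 2.85 for EGR1, 3.16 for IER2 and -2.77 for IER3, and 1.18 and 1.09 for BTG2 and IER5. Of all genes, 8.77% were above all 6 HOPE libraries, as 4 of 7 early genes were, and 66.5% were below all 6, as IER3 was. With quantile normalization 420 genes were called higher and 499 lower, and KLF4, EGR2, EGR1 and IER3 passed in the same directions, with IER2 also higher (adjusted p 0.045). The EGR1 call was lost without replicate 1 of HOPE 24 h (adjusted p 0.098) and the EGR2 call without replicate 2 (0.059).

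The SCS library also stood apart in its cell type markers. Its 7 cardiomyocyte markers found summed to 2467 TPM against 38081 to 61377 in the HOPE libraries, and its fibroblast markers to 2615 against 541 to 1171. Red cell markers summed to 6161 TPM against 34.2 to 3125, T and NK cell markers to 74.7 against 12.5 to 33.8, and endothelial markers to 156 against 200.2 to 440. The part of this makeup in the early gene differences was not tested, and with 1 SCS library the method and the library cannot be told apart.

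Among the other early genes, FOS and PPP1R15A were called higher in the SCS library, 2 of 21 tested, as 2.42% of all genes were. FOS, an AP-1 subunit, was 1450.3 TPM against 71.1 and 116 in HOPE 24 h, with a difference of 3.98 ± 0.97 (limma, adjusted p 0.011). PPP1R15A, which directs the dephosphorylation of the translation factor eIF2alpha, was 394 TPM against 87.5 and 135, or 1.85 ± 0.53 (adjusted p 0.021). The list's median was 0.38, with 15 of 21 positive against a median of -1.12 over all genes. Of 14 upstream genes tested, 5 were called lower, as 51.8% of all genes were, and none higher. HDAC5 differed by -2.39 ± 0.35 (24.7 TPM against 127 and 142, adjusted p 0.0015), MAP2K2 by -1.90 ± 0.36 (0.0043), MEF2A by -1.25 ± 0.34 (0.017) and RPS6KA3 by -1.75 ± 0.57 (0.032). MEF2D, chosen after its values were seen, was the fifth, at -0.98 ± 0.33 (adjusted p 0.036). The median of the 14 was -0.94.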

How the data were processed

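Arm 1 values are signals: the authors divided gene counts by a size factor, per the file headers and values, and whole reads were recovered at a tolerance of 1e-06. The deposited arm 2 values were read as TPM because each library sums to 1000000 and the lowest values share no common step, though the table is titled normalised counts, so depth is unknown there. Another 11 arm 2 columns match no sample and were not used. The submitters' processing notes name HISAT2 2.2.1, STAR 2.5.2b, featureCounts 2.0.6, DESeq2 and Sscrofa11.1, without saying which arm each served. The arms used different poly(A) kits and were tested apart.

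Each arm was fitted once with limma 3.58.1 (R 4.3.3, eBayes with trend) on log2(value + 1), a scale on which differences of weakly expressed genes come out too small. Tests covered genes averaging at least 10 (14141 in arm 1, 4388 in arm 2), with Benjamini-Hochberg adjustment and a threshold of 0.05. The arm 2 fit has 3 residual degrees of freedom and gives the lone SCS library the variance of the HOPE groups. The design was written for normalised counts, and its pseudocount and minimum were kept for TPM. edgeR 4.0.16 and DESeq2 1.42.0 were run on the recovered reads. The fits were tested on simulated data.

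Each pig gave 4 arm 1 biopsies, and deviations of same-pig libraries correlated in all 36 pairs (r 0.23 to 0.73). The pig block was a fixed term within pigs and a random term (correlation 0.44) between methods.

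The members and gene lists were chosen with earlier results of these data known. From each list, the genes named are up to 4 that pass in each direction with the smallest p, else the highest and lowest difference. The 8 genes most like the members and the 3 least like them have a mean of at least 100. Other scalings, pseudocounts, filters, tools and left-out replicates were tried.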

Additional observations from a re-analysis of the deposited data

Results flagged for a closer look

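EGR1 in the 6 hearts at 0 h was flagged because the SCS heart of pig 1, at a normalised count of 1769, lay far from the other hearts, which ranged from 230 to 713. The gap to the next heart was 0.686 of the whole range, above the 95% critical value of Dixon's test. It was taken on the counts and not on the log2 scale of the other results, and the flag depends on that choice. On the log2 scale pig 1 was at 10.79, the next heart (pig 3) at 9.48 and the lowest (pig 2) at 7.85. There the gap above pig 3 was smaller than the distance from pig 3 to pig 2. As a share of the range it was below the critical value. All 9 early genes were scanned at 0 h, and only EGR1 was flagged. Chance flags about 1 in 20 groups if the values are normally distributed.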

How the results depend on the processing

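The number of early genes called (limma, adjusted p) was within 1.5 times the main count in 403 of 409 recalculated counts. The main count was 0 in every comparison but SCS against HOPE after NMP, so most of these set 0 against 0. Some settings also left out libraries that were not among those compared. The share therefore says little about how firm the results are. Scaling arm 1 to library totals, which moved the median gene of SCS 48 h against 0 h to -0.99 and of HOPE against SCS at 48 h to 1.12, called 5591 and 8112 genes and gave 3 early gene calls (BTG2, IER2 and KLF4 lower) and 6 calls (IER5, NR4A1, KLF4, BTG2, IER3 and IER2 higher in HOPE). For HOPE against SCS at 24 h DESeq2 gave 2, and leaving out each pig gave 0 to 2 (IER2 and IER3 without pig 1); at 48 h the range was 0 to 1 (IER3 without pig 1). After NMP, SCS against HOPE gave 4 calls, 5 with quantile normalization, 3 to 5 with a replicate left out (3 without either HOPE 24 h library, 5 without either HOPE 48 h library) and 0 with no filter, when 25149 genes share the adjustment. Signs turned at 24 h of HOPE for NR4A1 (-0.011 without pig 6, -0.13 without its 24 h library; -0.011 to 1.08 over left-out pigs) and BTG2 (-0.16 and -0.072; -0.16 to 1.09). Leaving out single libraries was chosen after seeing the data. After NMP, the SCS difference turned for IER5 with quantile normalization (0.89), without mitochondrial genes (0.28) and without HOPE 24 h replicate 1 (0.026; -0.084 to 0.026 over left-out replicates), and for BTG2 without that replicate (-0.61; -0.61 to 0.73). The cause was not tested. Over all genes, HOPE against SCS called 288 at 24 h, but 112 with no filter, 147 with quantile normalization, 1521 with DESeq2, 1396 with the replicate block, 0 when only the groups compared were fitted and 2 to 2721 with a pig left out. At 48 h it called 884, but 1931 with DESeq2, 1628 with the block, 0 with only the groups compared and 5 to 3282 with a pig left out. The pig block changed no early gene's call. Equal replicate numbers in arm 2 correlated at 0.09 to 0.38 and were not taken as pairs; blocking by them called 0 early genes in the 3 comparisons of HOPE storage lengths and was not fitted for SCS against HOPE. Depth limits EGR2 and NR4A2 most, at 15 to 82 and 14 to 150 reads.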
